A study of Mus musculus with 6 samples.

Results

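The genes of desmosomal cadherins and plaque proteins were followed in epidermal cells, sorted by a surface marker of basal cells, of mouse embryos that carry an activated phosphoinositide 3-kinase. The set holds 10 genes chosen by name: the desmogleins Dsg1a, Dsg1b, Dsg2 and Dsg3, the desmocollins Dsc1, Dsc2 and Dsc3, and the plaque genes Dsp, Jup and Pkp1. They are 10 of the 24354 genes in the deposited table. RNA was sequenced from epidermal cells of E18.5 embryos, which are close to birth, after a cell sort that kept those with much α6 integrin on their surface, a receptor subunit that binds basal cells to the basement membrane. The mutant group has 3 libraries from embryos homozygous for the H1047R variant of Pik3ca, the catalytic subunit p110α, and the WT group has 3 libraries from wild-type embryos, all with the strain label C57BL6. The sources used here do not give how the allele was made, what drives it, which cells carry it or whether the controls carry other alleles. The labels do not state that replicates are different animals. The p-values are therefore read against the spread of these 6 samples alone, part of which may be technical.

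Desmosomes are the junctions that hold keratinocytes together. Outside the cell, desmogleins and desmocollins, relatives of the classical cadherins, bind their partners on the next cell, and inside it their tails bind plakoglobin (Jup) and plakophilins, which in turn bind desmoplakin (Dsp), the link to the keratin filaments. In stratified epidermis the isoforms are layered: Dsg3 and Dsc3 are strongest in the basal and lower layers, Dsg1 and Dsc1 in the layers above, and Dsg2 and Dsc2 are the forms of simple epithelia.

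In mutant cells, 7 of the 10 genes rose (Dsc1, Dsg1b, Dsg1a, Dsc2, Pkp1, Dsp and Dsc3), 1 fell (Dsg3), and Dsg2 and Jup did not pass the test; Dsg3 lost its call with the same total FPKM in every library. The largest changes were in the isoforms of the upper layers: Dsc1 was 3.47-fold, Dsg1b 3.13-fold and Dsg1a 2.35-fold higher by mean FPKM. FPKM is fragments per kilobase of transcript, scaled for library size in a way that the sources used here do not name. The test was limma on log2(FPKM + 1), with Benjamini-Hochberg adjustment over 11385 genes whose mean reached 1 FPKM and a threshold of 0.05. All 10 genes passed that filter. Calls were common in this contrast. Of all tested genes 46.0% were called, 23.2% as higher and 22.8% as lower, against 80% of the 10, 70% of them higher and 10% lower. Counts of other gene lists below are to be read beside these shares over all tested genes. The median log2 fold change, mutant minus WT, was 0.53 over the 10 genes and 0.01 over all tested genes. The groups did not overlap for 8 of the 10 genes, and for 56.0% of all tested genes. With 3 libraries against 3, the exact permutation test cannot give a p below 0.1, and it gave 0.1 for each of these 8 genes.

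**Figure D1:**
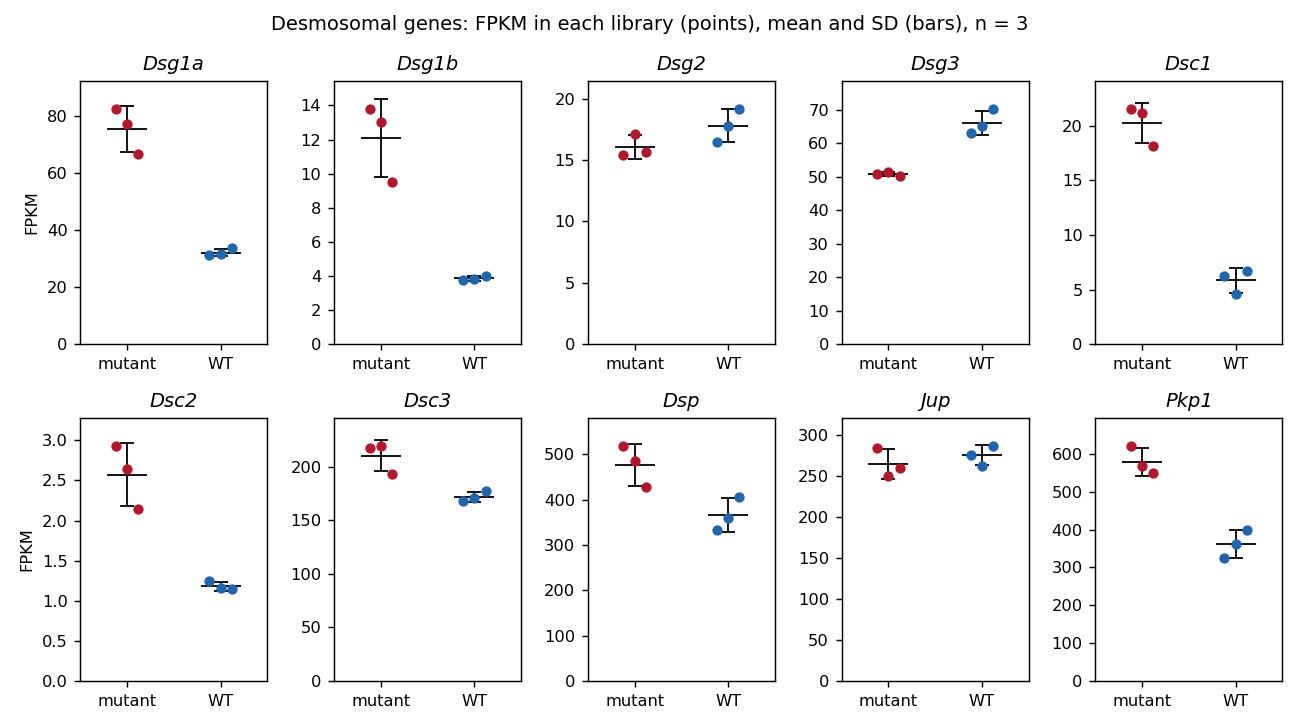
FPKM of the 10 genes in each library, with a panel and a linear axis from 0 for each gene; points are libraries, long bars the mean and capped bars the SD of 3 mutant (red) and 3 WT (blue) libraries. The groups are apart in every panel except Dsg2 and Jup, and only in the Dsg3 panel do the mutant libraries lie wholly below the WT libraries.

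The libraries differed in ways that bear on these levels. Summed FPKM was 542210, 538627 and 651769 in mutant libraries 1, 2 and 3, against 752768, 767148 and 656761 in WT libraries 1, 2 and 3. All 7 genes that rose were lowest in mutant library 3 among the mutants, and 9 of the 10 genes were highest in WT library 3 among the WT. Xist, the RNA of the inactive X chromosome, divided each group in the same places: it was 0.733, 0.0542 and 71.1 FPKM in mutant libraries 1, 2 and 3, against 30.5, 24.2 and 0.53 FPKM in WT libraries 1, 2 and 3. With the Xist level as a covariate, chosen after seeing the data, the same 7 higher calls and 1 lower call were made. Correlations of log2(FPKM + 1) between libraries lay between 0.959 and 0.980 within a group and between 0.939 and 0.953 across groups. Absolute depth is unknown. Depth relative to WT library 1, read from the lowest values, was 1.11 to 1.24 in mutant libraries and 0.98 to 1.15 in WT libraries. Pik3ca itself averaged 6.65 ± 0.602 FPKM in mutant and 9.04 ± 0.415 FPKM in WT libraries (SD, n = 3 each), a level that does not show which allele is transcribed.

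The keratins of basal cells were abundant in both groups, while integrin and hemidesmosome genes of the same marker list fell in mutant cells as deposited. Krt5, the type II keratin of basal cells, averaged 11977 ± 919 FPKM in mutant and 12028 ± 155 FPKM in WT libraries (SD, n = 3 each). The summed level of 8 basal markers ranged from 23711 to 27134 FPKM in mutant and from 25812 to 26210 FPKM in WT libraries, and Krt5 and Krt14 make up most of it. Of these 8, Krt15 rose, Itgb1, Itgb4, Itga6 and Col17a1 fell (log2 fold changes -1.16, -0.75, -0.41 and -0.36 as deposited, with Itga6 at -0.08 and not called at the same total FPKM in every library), and Krt5, Krt14 and Trp63 were not called. Values of Itgb1, Itgb4 and Col17a1 under that scaling are not given here. The hemidesmosome list, which holds Itgb4, Itga6 and Col17a1, had 8 lower calls as deposited and 5 under it. Markers of the spinous layer were also high. Of 6 such genes 4 rose (Krt1, Krt10, Grhl3 and Notch3) and Krtdap and Sbsn were not called, and their summed level ranged from 11640 to 14254 FPKM in mutant and from 3786 to 4549 FPKM in WT libraries. Of 4 tested granular markers Casp14 and Tgm3 rose, Lor fell and Ivl was not called, with sums of 55.4 to 82.9 FPKM in mutant and 63.2 to 115 FPKM in WT libraries. Krt15, Krt1, Krt10, Grhl3, Notch3, Casp14 and Tgm3 thus rose as most of the desmosomal genes did, while the other tested markers of these layers fell or were not called. The shares over all tested genes were 23.2% higher and 22.8% lower. The part of these markers in the desmosomal differences was not tested. In bulk RNA, fewer cells of a type and less RNA per cell cannot be told apart.

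No tested marker of fibroblasts, melanocytes, immune cells or muscle was called higher. Over all tested genes, 23.2% were called higher and 22.8% lower. Fibroblast markers had 3 lower and 0 higher of 7 tested, with sums of 479 to 527 FPKM in mutant and 716 to 867 FPKM in WT libraries. Of 3 tested melanocyte markers 2 were lower, with sums of 10.9 to 13.8 FPKM in mutant and 15.9 to 21.6 FPKM in WT libraries. Immune markers had 2 lower of 3 tested, Cd207 of Langerhans cells was listed at 0 in every library, and the sums were 6.36 to 6.83 FPKM in mutant and 8.07 to 9.79 FPKM in WT libraries. Endothelial markers were all under the filter, and muscle markers, which matter because Dsp and Jup also serve striated muscle, had 2 lower of 3 tested with sums of 7.43 to 7.86 FPKM in mutant and 12.9 to 19.2 FPKM in WT libraries. Of Merkel cell markers Krt8 rose and Krt18 was not called, and their list summed to 3.27 to 13.2 FPKM in mutant and 2.38 to 2.72 FPKM in WT libraries, highest in mutant library 1. Krt8 was at 6.05, 2.29 and 1.68 FPKM in mutant libraries 1, 2 and 3, against a mean of 0.937 FPKM in WT libraries. It passed the filter of 1 FPKM only through its mutant values, so its rise is a description only. Of 5 tested markers of hair follicle and periderm Shh, Lhx2 and Krt6a rose, Krt17 fell and Edar was not called. Their list summed to 1304 to 1546 FPKM in mutant and 1886 to 2316 FPKM in WT libraries. Krt17, with means of 1397 FPKM in mutant and 2026 FPKM in WT libraries, makes up most of it.

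Among the desmogleins, the 2 tested copies of the mouse Dsg1 family rose and Dsg3 fell. Dsg1a, a copy of the desmoglein that is strongest in the differentiated layers and is attacked in pemphigus foliaceus, was at 82.4, 77.3 and 66.6 FPKM in mutant libraries 1, 2 and 3, against 31.3, 31.5 and 33.6 FPKM in WT libraries 1, 2 and 3. Every mutant library was far above every WT library, and mutant library 3 was the lowest of the mutants. The log2 fold change was 1.20 (SE 0.0841) with a limma adjusted p of 3.25e-05. Dsg1b, its close copy, was at 13.8, 13.0 and 9.49 FPKM in mutant libraries 1, 2 and 3, against 3.74, 3.85 and 4.01 FPKM in WT libraries 1, 2 and 3. The groups were again apart, with the same mutant library lowest. Its log2 fold change was 1.41 (SE 0.124) with a limma adjusted p of 9.68e-05.

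The copies of Dsg1 cannot be fully separated. In transcripts of the GENCODE M21 annotation, 31.58% of the 50-base windows of Dsg1a also occur in Dsg1b and 18.79% in Dsg1c, and 45.45% of those of Dsg1b occur in Dsg1a. Reads from such windows can be assigned to either copy, so the individual levels are uncertain and the sum is the safer quantity. Summed over Dsg1a, Dsg1b and Dsg1c, the level averaged 87.7 ± 10.3 FPKM in mutant and 36.1 ± 1.40 FPKM in WT libraries (SD, n = 3 each). With the sum in place of the copies, the log2 fold change was 1.25 (SE 0.0894) and the limma adjusted p 3.60e-05. Dsg1c, the third copy, averaged 0.180 FPKM in mutant and 0.0808 FPKM in WT libraries and was under the filter, as was Dsg4, a desmoglein of the hair shaft, with 0.0416 FPKM in mutant and 0.0406 FPKM in WT libraries.

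Dsg3, the desmoglein of the basal and lower layers and the antigen of pemphigus vulgaris, was at 50.7, 51.4 and 50.1 FPKM in mutant libraries 1, 2 and 3, against 63.0, 65.1 and 70.1 FPKM in WT libraries 1, 2 and 3. All mutant libraries were below all WT libraries and were close to one another. The mean was 23.2% lower, with a log2 fold change of -0.37 (SE 0.0603) and a limma adjusted p of 0.00187. Scaling every library to the same total FPKM moved the median gene up by 0.29 on the log2 scale, and there Dsg3 had a log2 fold change of -0.05, a limma adjusted p of 0.746 and overlapping groups. Relative to the median gene under that scaling it stood at -0.35. Dsg2, the desmoglein of simple epithelia, was at 15.4, 17.2 and 15.6 FPKM in mutant libraries 1, 2 and 3, against 16.4, 17.8 and 19.1 FPKM in WT libraries 1, 2 and 3. The groups overlapped. Its log2 fold change of -0.14 (95% interval -0.31 to 0.03, limma adjusted p 0.160) did not pass the test, and its sign was positive, at 0.17, under the same-total scaling.

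Because a ratio within a library does not depend on how libraries are scaled, the balance of isoforms was also read that way. The Dsg1 copies made up 59.3%, 56.9% and 53.7% of summed desmoglein FPKM in mutant libraries 1, 2 and 3, against 30.7%, 30.0% and 29.7% in WT libraries 1, 2 and 3. In every mutant library they outweighed Dsg3, and in every WT library Dsg3 outweighed them. The share of Dsg3 averaged 32.9% ± 2.10 in mutant and 55.1% ± 0.122 in WT libraries, and that of Dsg2 10.4% ± 0.824 in mutant and 14.8% ± 0.400 in WT libraries (SD, n = 3 each). As a ratio, the Dsg1 copies over Dsg3 stood at 1.73 ± 0.191 in mutant and 0.547 ± 0.0102 in WT libraries, and Dsg2 over Dsg3 at 0.316 ± 0.0155 in mutant and 0.269 ± 0.00686 in WT libraries (SD, n = 3 each). Neither ratio overlapped between groups, with an exact permutation p of 0.1 each, the smallest possible, and 0.12 after Benjamini-Hochberg adjustment over 6 ratios. Among the copies, Dsg1a over Dsg1b, a ratio chosen after its values were seen, was 6.31 ± 0.614 in mutant and 8.32 ± 0.107 in WT libraries (SD, n = 3 each), read under the same limit on shared sequence.

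**Figure D2:**
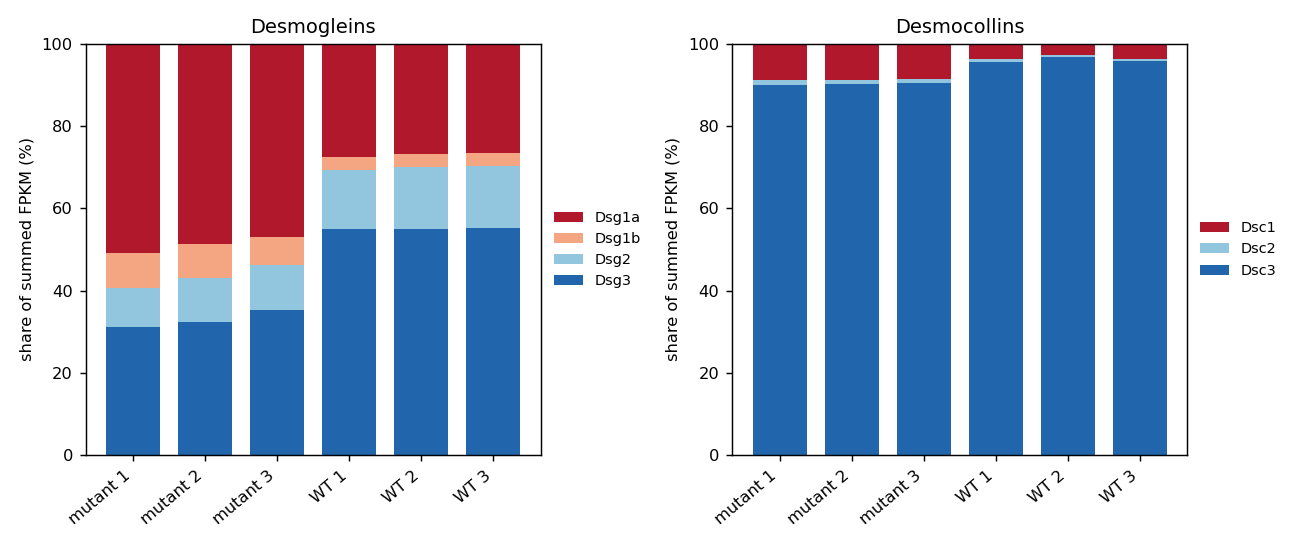
Stacked bars give the share of summed FPKM, in percent, of each desmoglein (left) and each desmocollin (right) in every library, mutant libraries left of WT libraries; Dsg1c and Dsg4 are too small to draw and are left out. Dsg1a and Dsg1b take over 50% of the desmoglein bar in every mutant library, and Dsc3 takes most of the desmocollin bar in both groups.

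All 3 desmocollins rose. Dsc1, the desmocollin of the upper spinous and granular layers, was at 21.5, 21.1 and 18.1 FPKM in mutant libraries 1, 2 and 3, against 6.23, 4.57 and 6.69 FPKM in WT libraries 1, 2 and 3. The groups were far apart, and mutant library 3 was the lowest mutant. The log2 fold change was 1.65 (SE 0.126) with a limma adjusted p of 4.65e-05, which placed Dsc1 at rank 29 of 11385 tested genes, counted from the largest rise. Dsc2, the widely expressed desmocollin of simple and stratified epithelia, was at 2.93, 2.64 and 2.14 FPKM in mutant libraries 1, 2 and 3, against 1.25, 1.15 and 1.14 FPKM in WT libraries 1, 2 and 3. It was the lowest of the 10 genes in both groups, and its groups did not overlap. Its log2 fold change of 0.71 (SE 0.106, limma adjusted p 0.00135) understates its 2.18-fold ratio of means, since 1 FPKM is added to so low a level.

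Dsc3, the main desmocollin of basal cells, was at 217, 219 and 193 FPKM in mutant libraries 1, 2 and 3, against 168, 171 and 177 FPKM in WT libraries 1, 2 and 3. The groups did not overlap, but mutant library 3 lay near the highest WT library. The rise was 1.22-fold, with a log2 fold change of 0.29 (SE 0.0731) and a limma adjusted p of 0.0144. It was larger under other scalings, with a log2 fold change of 0.61 at the same total FPKM in every library and 0.60 under quantile normalization. This call was lost when mutant library 1 or 2 or WT library 1 or 2 was left out, at limma adjusted p between 0.0520 and 0.0654 and log2 fold changes of 0.25 to 0.28. Dsc3 remained by far the most abundant desmocollin, at 90.2% ± 0.306 of summed desmocollin FPKM in mutant and 96.1% ± 0.581 in WT libraries (SD, n = 3 each). The share of Dsc1 was 8.88%, 8.70% and 8.48% in mutant libraries 1, 2 and 3, against 3.55%, 2.59% and 3.62% in WT libraries 1, 2 and 3. The ratio of Dsc1 over Dsc3 was 2.88-fold and that of Dsc2 over Dsc3 1.77-fold higher in mutant libraries, without overlap and with an exact permutation p of 0.1 for each, 0.12 after adjustment over the 6 ratios. Dsc1 over Krt10, the keratin of spinous cells and a ratio chosen after its values were seen, was 0.00344 ± 0.000211 in mutant and 0.00340 ± 0.000225 in WT libraries (SD, n = 3 each), with overlapping groups.

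Of the genes tested, those whose values over the 6 libraries were most like those of Dsc1 were Tgm3, an epidermal transglutaminase, then Krt10 and Pla2g4f, a cytosolic phospholipase. Their root mean square differences from Dsc1, on log2(FPKM + 1) centred on each gene's mean, were 0.0547, 0.0942 and 0.0945. For Dsg3 the most alike were Itga6, the α6 integrin by which the cells were sorted, at 0.0223, Kctd9 at 0.0244 and the transcription factor gene Jun at 0.0266. These 6 libraries share their groups and their totals, so likeness over them is a description only.

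The desmoglein and desmocollin genes lie side by side in a single cluster on chromosome 18, from 19960930 to 20604526 (GRCm38), a span of 643.6 kb with 9 genes in the table. On the minus strand come Dsc3 (19960930 to 20002097), Dsc2 (20030798 to 20059505) and Dsc1 (20083471 to 20114773). On the plus strand follow Dsg1c, Dsg1a (20310873 to 20343353), Dsg1b (20376835 to 20409741), Dsg4, Dsg3 (20510304 to 20541310) and Dsg2 (20558116 to 20604526). The 3 largest rises were inside the cluster, in Dsc1, the innermost desmocollin gene, and in Dsg1a and Dsg1b. At the ends stood Dsc3, with a log2 fold change of 0.29, and Dsg3 and Dsg2, with -0.37 and -0.14. Annotated exons of Gm16090 overlap Dsg2 on the other strand, and the sources used here do not say whether the libraries keep the strand.

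**Figure D3:**
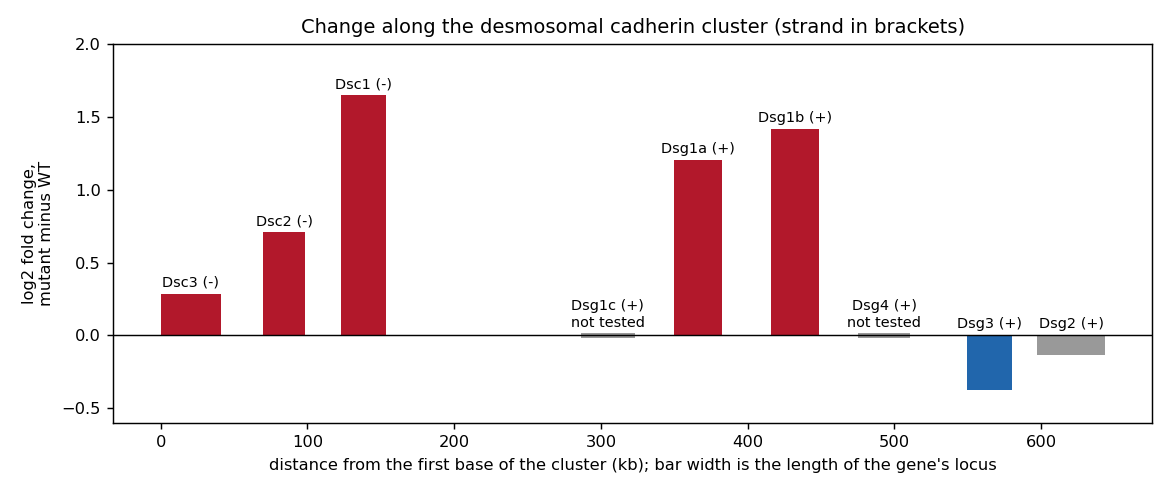
Log2 fold change, mutant minus WT, of FPKM + 1 for the desmosomal cadherin genes in their order along the cluster, plotted against distance in kb from its left end; red is higher, blue lower and grey not called or not tested. Dsc1, Dsg1a and Dsg1b stand highest, with Dsc3 at the left end at 0.29, and Dsg3 and Dsg2 at the right end lie below 0 as deposited (Dsg2 at 0.17 with the same total FPKM in every library).

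The 3 plaque genes were the most abundant of the 10 in both groups, and among them Pkp1 rose most. Pkp1, plakophilin 1, which clusters desmosomal cadherins and recruits desmoplakin in the suprabasal layers, was at 621, 568 and 548 FPKM in mutant libraries 1, 2 and 3, against 324, 361 and 398 FPKM in WT libraries 1, 2 and 3. No mutant library came near the WT range. The gene lies on chromosome 1 (135871395 to 135919024, minus strand). The rise was 1.60-fold, with a log2 fold change of 0.68 (SE 0.0997) and a limma adjusted p of 0.00118; under quantile normalization the log2 fold change was 1.07. Within libraries, Pkp1 over Pkp3 was 3.75 ± 0.329 in mutant and 2.07 ± 0.281 in WT libraries (SD, n = 3 each), with an exact permutation p of 0.1, 0.12 after adjustment over the 6 ratios. Its share of summed Pkp1, Pkp2 and Pkp3 FPKM was 78.8% ± 1.53 in mutant and 67.0% ± 3.08 in WT libraries (SD, n = 3 each).

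Dsp passed the test and Jup did not. The 250 bases before the annotated start of each gene, from RefSeq on GRCm38.p6, are shown so that these plaque genes can be set side by side. The Dsp stretch is chr13:38151044-38151293 on the plus strand and the Jup stretch chr11:100397791-100398040 on the minus strand. Each is written 5′ to 3′ in the direction of its gene, and capitals mark matches to a GC box (GGGCGG) or to CACCC, the core that KLF factors bind, on either strand.
Dsp: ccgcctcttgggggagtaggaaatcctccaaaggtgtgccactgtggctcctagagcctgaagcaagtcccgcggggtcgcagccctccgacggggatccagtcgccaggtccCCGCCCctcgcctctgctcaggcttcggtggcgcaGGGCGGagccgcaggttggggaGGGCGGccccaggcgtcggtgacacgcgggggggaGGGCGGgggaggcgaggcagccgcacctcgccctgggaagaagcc
Jup: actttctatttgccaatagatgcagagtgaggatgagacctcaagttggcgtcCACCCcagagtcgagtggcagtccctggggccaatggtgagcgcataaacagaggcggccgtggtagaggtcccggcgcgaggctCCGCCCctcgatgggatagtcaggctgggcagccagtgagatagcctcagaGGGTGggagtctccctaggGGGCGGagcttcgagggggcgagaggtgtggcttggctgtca
The Dsp stretch held 4 GC boxes and the Jup stretch 2 GC boxes and 2 CACCC matches, with no overlaps between matches. Of 27025 mouse promoter stretches of this length, 32.9% held a GC box and 51.3% a CACCC. Matches to the AP-1 motif TGANTCA (in 6.9% of stretches), the GRHL motif AACCNGTT (1.7%) and the TATA box TATAAA (13.0%) are in neither stretch. GC content was 72.4% for Dsp and 62.0% for Jup. The whole Dsp stretch lies in an annotated exon of Gm10129 on the other strand, while no annotated exon lies in that of Jup. The Jup stretch ends before the RefSeq start at 100397790, whereas GENCODE M21 starts the gene at 100397763, and the bases after the stretch matched the start of no GENCODE transcript of Jup; those after the Dsp stretch matched one of Dsp. A match of letters does not show that a factor binds.

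Dsp, which ties the plaque to keratin filaments, was at 518, 484 and 427 FPKM in mutant libraries 1, 2 and 3, against 333, 359 and 406 FPKM in WT libraries 1, 2 and 3. The groups did not overlap, though mutant library 3 and WT library 3 were close. The rise was 1.30-fold, with a log2 fold change of 0.38 (SE 0.107) and a limma adjusted p of 0.0214. It was larger under other scalings, with a log2 fold change of 0.71 at the same total FPKM in every library and 0.72 under quantile normalization. The call was lost when mutant library 1 or 2 or WT library 1 or 2 was left out, at limma adjusted p between 0.0717 and 0.0769 and log2 fold changes of 0.31 to 0.37. The deposited interval of each Dsp value was also wide. Its upper bound was 1115.5, 1020 and 894 FPKM in mutant libraries 1, 2 and 3. In WT libraries 1, 2 and 3 the upper bound was 655, 698 and 864 FPKM. The lower bound was 0 in all 3 mutant libraries and in WT library 3. Exons of Gm10129 overlap those of Dsp on the other strand. The genes most like Dsp over the 6 libraries were Pdcd11, Plxna2 and Neo1, with root mean square differences of 0.0202, 0.0215 and 0.0225.

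Jup, plakoglobin, the plaque protein that desmosomes share with adherens junctions, was at 285, 250.2 and 259.9 FPKM in mutant libraries 1, 2 and 3, against 277, 263 and 287 FPKM in WT libraries 1, 2 and 3. The groups overlapped. Its log2 fold change was -0.06 (95% interval -0.24 to 0.12) with a limma adjusted p of 0.577. The sign turned under scaling: it was 0.27 with the same total FPKM in every library (limma adjusted p 0.0712) and 0.33 under quantile normalization (limma adjusted p 0.0278, a higher call). Relative to the median gene it stood at -0.03 under the same-total scaling. Jup over Ctnnb1, β-catenin, its closest relative, was 0.542 ± 0.0590 in mutant and 0.561 ± 0.0335 in WT libraries (SD, n = 3 each), with an exact permutation p of 0.7. Dsp over Jup, a ratio chosen after its values were seen, was 1.80 ± 0.146 in mutant and 1.33 ± 0.111 in WT libraries (SD, n = 3 each), without overlap.

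**Figure D4:**
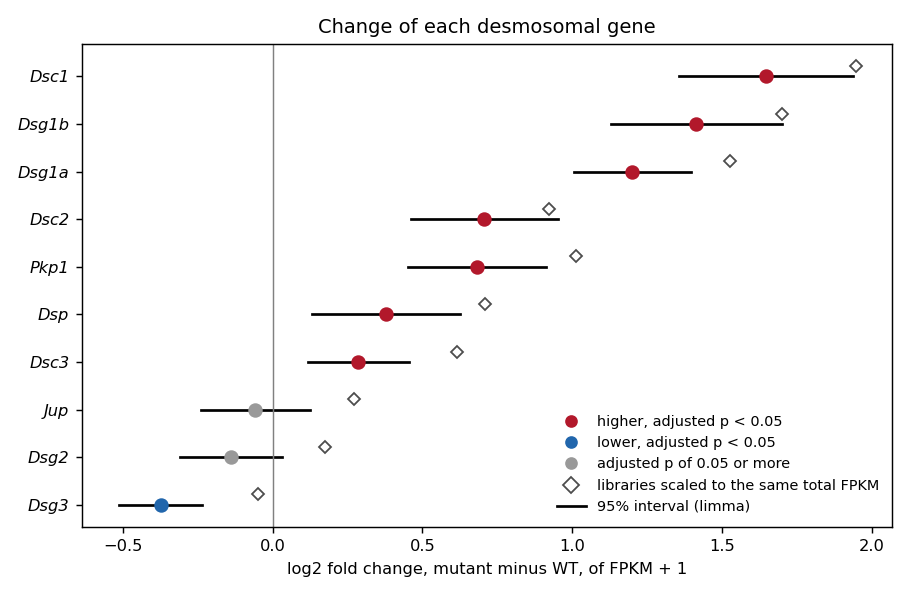
Log2 fold change, mutant minus WT, of FPKM + 1 for each of the 10 genes with its 95% interval from limma; red is higher, blue lower and grey not called, and open diamonds give the value with every library scaled to the same total FPKM. Dsc1, Dsg1b and Dsg1a stand apart at 1.65, 1.41 and 1.20, and the intervals of Dsg2 and Jup cross 0, with their diamonds above 0.

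By level, which FPKM allows since it is per length, the order in mutant libraries was Pkp1, Dsp, Jup, Dsc3, Dsg1a, Dsg3, Dsc1, Dsg2, Dsg1b and Dsc2, and no neighbours in it overlapped over libraries. In WT libraries the order was Dsp, Pkp1, Jup, Dsc3, Dsg3, Dsg1a, Dsg2, Dsc1, Dsg1b and Dsc2, and there Dsp and Pkp1 overlapped. By these point values Dsg1a stood above Dsg3 in mutant and below it in WT libraries, and Dsc1 likewise changed places with Dsg2. In mutant libraries the deposited intervals of Pkp1 and Dsp overlapped, as did those of Dsg1a and Dsg3. The single levels of Dsg1a and Dsg1b also carry the limit of shared sequence. Summed cadherin FPKM was 387 ± 27.4 in mutant and 299 ± 11.5 in WT libraries, and summed plaque FPKM 1321 ± 95.6 in mutant and 1003 ± 80.8 in WT libraries (SD, n = 3 each). The authors' own intervals, which the headers give only as bounds around each value, were compared between mutant and WT libraries. They were apart in all 9 pairs of a mutant and a WT library for Dsc1 and Dsg1b, in 6 for Dsg1a and in 2 for Dsc2. For the other 6 genes they were apart in 0 of 9 pairs.

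Of 11 further genes of desmosomes and the cornified layer, 9 were tested, with 3 higher, 3 lower and 3 not called, and a median log2 fold change of 0.06. That is 33.3% higher and 33.3% lower, against 23.2% and 22.8% of all tested genes. The clearer rises were in Ppl and Kazn. Periplakin (Ppl), a plakin that links desmosomes to the cornified envelope, averaged 84.2 FPKM in mutant and 47.0 FPKM in WT libraries (log2 fold change 0.83, limma adjusted p 0.00147), and its partner envoplakin (Evpl) 45.5 FPKM in mutant and 35.9 FPKM in WT libraries (0.34, limma adjusted p 0.0443) with overlapping groups. The call of Evpl was lost without mutant library 1 or 2 or WT library 1 or 2, at limma adjusted p between 0.0883 and 0.133. Kazrin (Kazn), which binds periplakin, averaged 8.09 FPKM in mutant and 4.76 FPKM in WT libraries (0.66, limma adjusted p 0.00113).

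The genes that fell were 2 plakophilin relatives and corneodesmosin. Pkp4 averaged 49.8 FPKM in mutant and 67.2 FPKM in WT libraries (log2 fold change -0.42, limma adjusted p 0.000874; -0.10 and not called with the same total FPKM in every library) and Pkp2, the plakophilin of heart and simple epithelia, 0.829 FPKM in mutant and 1.70 FPKM in WT libraries (-0.56, limma adjusted p 0.00640). Corneodesmosin (Cdsn), the glue of corneodesmosomes, averaged 1.92 FPKM in mutant and 5.49 FPKM in WT libraries (-1.14, limma adjusted p 0.00190). Pkp2 passed the filter of 1 FPKM only through its WT values, so its place among the genes that fell is a description only. With a mean of at least 5 FPKM, neither Pkp2 nor Cdsn was tested. Not called were Pkp3, the plakophilin of all epidermal layers, with 155 FPKM in mutant and 175 FPKM in WT libraries, the desmosomal membrane protein gene Perp with 1071 FPKM in mutant and 1027 FPKM in WT libraries, and Pof1b with 40.7 FPKM in mutant and 35.4 FPKM in WT libraries. With the same total FPKM in every library, or under quantile normalization, 5 of the 9 were called higher.

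Among 6 keratins that desmosomes anchor, 4 rose and 0 fell, where 23.2% of all tested genes were called higher and 22.8% lower. Krt1 averaged 5730 ± 666 FPKM in mutant and 1489 ± 175 FPKM in WT libraries (SD, n = 3 each; log2 fold change 1.94, limma adjusted p 5.4e-05), and its partner Krt10 5899 ± 699 FPKM in mutant and 1704 ± 222 FPKM in WT libraries (1.79, limma adjusted p 0.000105). Krt15, a basal keratin, averaged 3586 FPKM in mutant and 2546 FPKM in WT libraries (0.49, limma adjusted p 0.0153; lost without mutant library 2 or WT library 1 or 2, at 0.0565 to 0.0645), and Krt2, a late suprabasal keratin, 2.20 FPKM in mutant and 0.0982 FPKM in WT libraries (1.48, limma adjusted p 0.00153). Krt2 passed the filter of 1 FPKM only through its mutant values, so its place among the 4 is a description only. Without mutant library 1, or with a mean of at least 5 FPKM, Krt2 was not tested. Krt5 and Krt14, the basal pair, were not called, with log2 fold changes of -0.01 and -0.27.

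The other anchoring junctions gave different counts. Differences between lists were not tested. Over all tested genes, 23.2% were called higher and 22.8% lower. Of 12 adherens junction genes 3 rose, 7 fell and 2 were not called, with a median log2 fold change of -0.38. By the smallest p these were Vcl (vinculin), with 31.7 FPKM in mutant and 99.3 FPKM in WT libraries, Lima1, an actin-binding partner of α-catenin, with 71.9 FPKM in mutant and 164.6 FPKM in WT libraries, and Pvrl2 (nectin-2), with 40.4 FPKM in mutant and 79.8 FPKM in WT libraries. The 3 that rose, named after their values were seen, were Pvrl1, Pvrl4 and Ajuba; without WT library 1 or 2 a single gene of the list was called higher, and with the same total FPKM in every library 5 were higher and 3 lower. Of 9 hemidesmosome genes, which fix basal cells to the basement membrane, 8 fell, 0 rose and Cd151 was not called, with a median of -0.69; with the same total FPKM in every library, or under quantile normalization, 5 fell and 0 rose. Among those with the smallest p were genes of basement membrane laminin chains: Lamb3 averaged 126 FPKM in mutant and 220 FPKM in WT libraries, and Lama3 43.9 FPKM in mutant and 71.2 FPKM in WT libraries. The set includes Itga6, the gene of the sorting marker, with 123 FPKM in mutant and 163 FPKM in WT libraries, whose call was lost with the same total FPKM in every library and under quantile normalization.

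**Figure D5:**
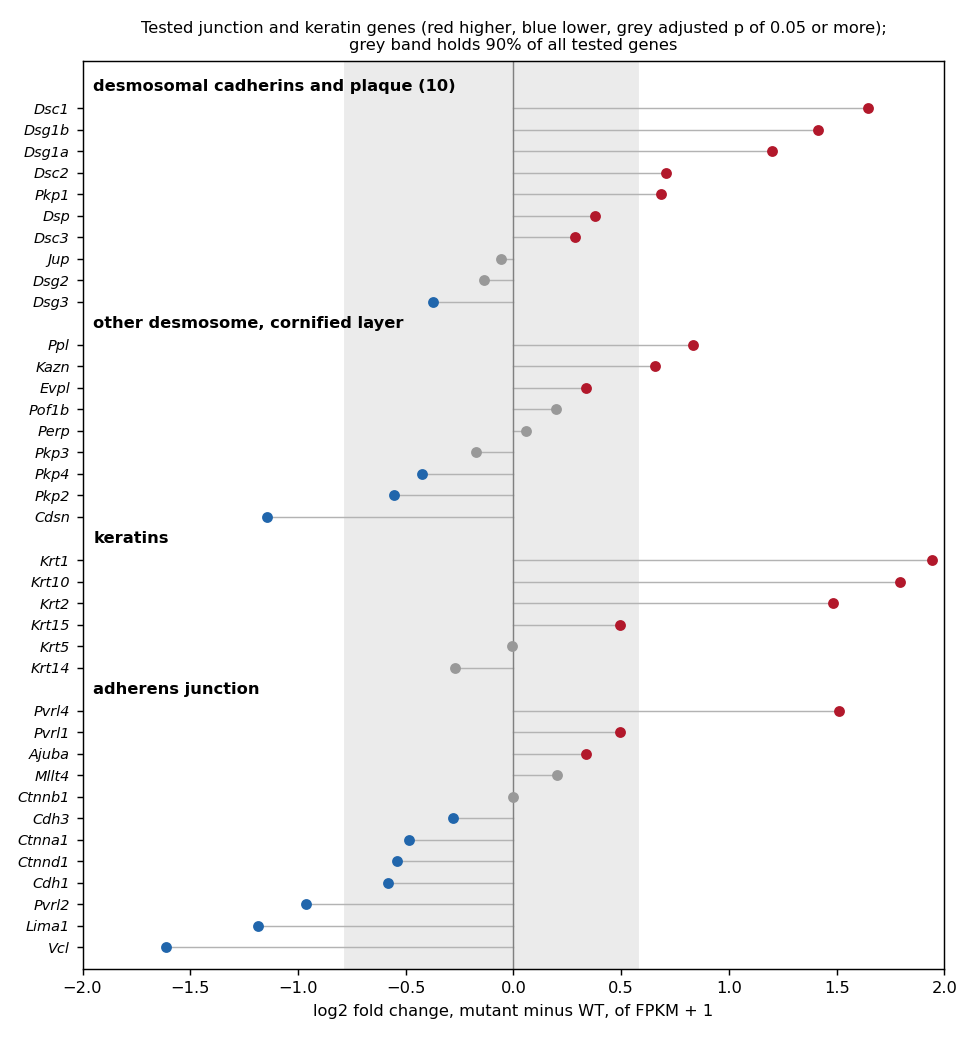
Log2 fold change, mutant minus WT, of FPKM + 1 for the tested genes of the desmosome, keratin and adherens junction lists, 1 row a gene; red is higher, blue lower and grey not called, and the grey band runs from the 5th to the 95th percentile of all tested genes, -0.78 to 0.58. Dsc1, Dsg1b, Dsg1a, Dsc2 and Pkp1 lie right of the band, as do Ppl, Kazn, Krt1, Krt10, Krt2 and Pvrl4 of the other lists. Cdsn, Vcl, Lima1 and Pvrl2 lie left of it. Of 12 adherens junction genes 7 are blue and 3 red as deposited (3 lower and 5 higher with the same total FPKM in every library).

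Genes that shed, degrade or modulate desmosomal cadherins were mixed. Of 11 tested, 2 rose, 5 fell and 4 were not called, with a median log2 fold change of -0.11. That is 18.2% higher and 45.5% lower, against 23.2% and 22.8% of all tested genes. Adam10 and Adam17, the sheddases that cut desmogleins, named after their values were seen, were the 2 that rose, with 27.0 FPKM in mutant and 21.2 FPKM in WT libraries for Adam10 and 13.3 FPKM in mutant and 10.6 FPKM in WT libraries for Adam17 (limma adjusted p 0.00357 and 0.00415). By the smallest p, Egfr averaged 24.3 FPKM in mutant and 39.6 FPKM in WT libraries, Ctsl, a lysosomal protease, 61.7 FPKM in mutant and 119 FPKM in WT libraries, and Klk5, a serine protease of the cornified layer, 3.94 FPKM in mutant and 7.75 FPKM in WT libraries. Each of these 3 fell.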

How the data were processed

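The deposited FPKM values of 24354 genes, with an interval for each value per the file headers, were made by the authors with TopHat and Cufflinks, as the submitters' processing notes say. The sources used here name neither versions nor the scaling between libraries. The notes name mm9, but 98.9% of 23315 symbols overlapped the gene of that name in GENCODE M21 of GRCm38, so positions are read as GRCm38, with 1 added to each start. FPKM are not counts, so no count test was run, and only relative depth is known.

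limma 3.58.1 in R 4.3.3 (trended empirical Bayes, Benjamini-Hochberg, threshold 0.05) was fitted to log2(FPKM + 1) of all 11385 genes whose mean reached 1 FPKM, in 3 mutant and 3 WT libraries. Fold changes are mutant minus WT on that scale, which understates changes of low genes; a fold in words is a ratio of mean FPKM. Ratios within a library were compared by the two-sided exact permutation test. The procedure was tested on simulated data with independent noise and far fewer changed genes than were called here. That test does not bear on how many of the calls hold. Python 3.11.15 with pandas 2.3.3 and matplotlib 3.10.9 handled tables and figures.

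The members and lists were chosen with earlier results of these data known. Named are all 10 members, all genes of the other desmosome list and the keratin list, up to 3 genes with the smallest p of each further list, the genes of the cadherin cluster, and the 3 genes most alike to Dsc1, Dsg3 and Dsp; others are stated to be chosen after their values were seen, and 1 gene that the rule takes is not reported here. Promoters were found in RefSeq's table for 2 of the 10 members. Alternatives covered the pseudocount, filter, scaling, variance prior, library weights, threshold, a replicate block, leaving out each library and, added after the data were seen, Xist as a covariate.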

Additional observations from a re-analysis of the deposited data

How the results depend on the processing

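Dsc1, Dsg1a, Dsg1b, Dsc2 and Pkp1 kept their higher call under every alternative that tested them. Between 5 and 8 members were called higher over 18 alternatives. Same-total FPKM moved the median gene by 0.29 (log2), called 5396 genes higher and 839 lower (86.5% higher, against 50.5% as deposited), and gave 0.17 for Dsg2, -0.047 for Dsg3 and 0.27 for Jup, with 0 members lower; quantile normalization gave 0.33 for Jup, 0.60 for Dsc3, 0.72 for Dsp and 1.07 for Pkp1. A threshold of 0.01 left 1554 higher and 1634 lower genes and ended the calls of Dsc3 (0.29) and Dsp (0.38). With a replicate block, limma adjusted p was 0.0791 for Dsc3 (0.29) and 0.0944 for Dsp (0.38), and no other member's call changed; deviations of same-numbered libraries had r of 0.127, 0.122 and -0.00735, and of other pairs -0.157 to 0.0619, so with pair 3 under 0.1 the numbers were not taken as a pairing. Leaving out 1 library gave 0.25 to 0.34 for Dsc3 and 0.31 to 0.46 for Dsp. Other desmosome genes had 5 higher (same total, quantile), 2 to 3 with 1 library left out, 2 with no filter, no variance trend, the replicate block or threshold 0.01, and 1 lower (mean of at least 5 FPKM); adherens junction genes had 5 higher and 3 lower (same total), 1 higher (threshold 0.01) and 1 to 4 higher with 1 library left out (1 without WT library 1 or 2); hemidesmosome genes had 5 lower (same total, quantile). Depth is known only relatively, and with 3 libraries a group small changes cannot be told from none.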
